A study of Homo sapiens with 48 samples.

Results

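The integrated stress response genes ATF4, DDIT3, HSPA5 and ALDH1L2 were followed across a RASL-Seq series of human embryonic stem cells, embryoid bodies and directed germ layer cultures. RASL-Seq is a targeted assay in which neighbouring probes are ligated on captured polyadenylated RNA, amplified and counted by sequencing. The members were all features of the count table that carry one of the 4 symbols. They were 11 of the 1113 probe pairs (called probes here) and 4 of the 452 genes of the panel, with 3 probes each for ATF4, HSPA5 and ALDH1L2 and 2 for DDIT3.

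All 48 libraries came from the established line WA09 (also known as H9) of human embryonic stem cells, and the labels name no genetic change. Embryoid bodies, which are floating aggregates of differentiating cells, were seeded at 20000 cells per well in Essential 6 medium and kept for 7 days. For the first 24 hours the dissociated cells received CEPT (16 libraries, CEPT EB) or the ROCK inhibitor Y-27632 (16 libraries, Y27 EB). CEPT is a mixture of chroman 1, emricasan, polyamines and trans-ISRIB, and trans-ISRIB inhibits the integrated stress response. No embryoid body group without a compound was analysed here, so each arm is read against the other or against the stem cells. The remaining groups had 4 libraries each. The hESC group was undifferentiated. The ectoderm group was kept for 6 days in Essential 6 medium that held 2 µM A83-01 and 100 nM LDN-193189. The mesoderm and endoderm groups were made with commercial STEMdiff kits in 5 days.

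In the integrated stress response, kinases that sense endoplasmic reticulum stress, amino acid shortage or other insults phosphorylate the translation factor eIF2. General protein synthesis then falls while the ATF4 messenger RNA is translated more, and the ATF4 protein switches on genes of amino acid supply, one-carbon metabolism and, under lasting stress, DDIT3. DDIT3 encodes CHOP, a transcription factor linked to cell death. HSPA5 encodes BiP, the main chaperone of the endoplasmic reticulum, and is switched on chiefly through the unfolded protein response. ALDH1L2 encodes a mitochondrial enzyme of folate metabolism and is a target of ATF4. Messenger RNA levels do not show how much of the ATF4 control took place, since much of it acts on translation.

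The promoter of HSPA5 is shown with those of HSP90B1 and CALR, because these chaperone genes are reported beside HSPA5 below and all carry the endoplasmic reticulum stress element. The 250 bases before each RefSeq gene start in GRCh38.p14 are printed 5′ to 3′ on the gene's strand, and capitals mark the element, searched as CCAAT and CCACG with any 9 bases between them, on either strand.
HSPA5, chr9:125241344-125241593, minus strand: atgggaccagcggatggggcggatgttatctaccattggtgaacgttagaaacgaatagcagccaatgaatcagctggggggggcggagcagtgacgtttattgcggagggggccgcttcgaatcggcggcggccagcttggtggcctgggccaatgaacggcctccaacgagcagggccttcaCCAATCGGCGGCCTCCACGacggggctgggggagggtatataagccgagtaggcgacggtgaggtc
HSP90B1, chr12:103930160-103930409, plus strand: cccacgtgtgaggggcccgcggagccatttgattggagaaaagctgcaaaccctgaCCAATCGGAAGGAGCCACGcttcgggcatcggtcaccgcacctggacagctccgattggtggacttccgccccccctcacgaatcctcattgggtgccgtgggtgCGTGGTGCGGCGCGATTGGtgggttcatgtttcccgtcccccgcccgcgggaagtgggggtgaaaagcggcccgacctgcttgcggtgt
CALR, chr19:12938359-12938608, plus strand: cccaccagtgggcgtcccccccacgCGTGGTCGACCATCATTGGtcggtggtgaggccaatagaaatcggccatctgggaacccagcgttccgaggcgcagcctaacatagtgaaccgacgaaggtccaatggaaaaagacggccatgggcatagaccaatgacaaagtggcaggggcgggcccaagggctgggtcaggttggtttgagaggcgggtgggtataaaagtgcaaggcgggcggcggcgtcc

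The first base of the element lay 66 bases before the start of HSPA5, 225 before CALR, and 194 and 89 before HSP90B1. In windows from 250 bases before to 50 after the start, the element was found in 27 of 35116 RefSeq promoters (0.0769%). No match was found for ATF4, DDIT3, DNAJC3 or ATF6 in such windows. The C/EBP-ATF response element, searched as TGATGNAAT on both strands, was found in 348 promoters (0.991%) and in none of these genes' windows. A match describes letters and was not tested as a binding site. The search took exact letters, so an element that differed in any fixed base, or lay outside the window, was missed.

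ATF4 lies on chromosome 22 at 39520559 to 39522686, and its probes 30, 31 and 32 fall in the coding sequence of the last exon, at 39522114, 39522122 and 39522598. DDIT3 lies on chromosome 12 at 57516588 to 57520517, with probes 849 and 164 in the 3′ untranslated part of exon 4 of 4, at 57516725 and 57516768. HSPA5 lies on chromosome 9 at 125234853 to 125241343, with probes 363, 364 and 365 in the 3′ untranslated part of exon 8 of 8, at 125236471, 125236145 and 125235629. ALDH1L2 lies on chromosome 12 at 105019790 to 105084458. Its probe 1157 is in the coding sequence of exon 11 of 23, and probes 1158 and 1159 are in the 3′ untranslated part of exon 23. These positions rest on GENCODE release 29 transcripts paired with the RefSeq transcripts of the probes, and a difference in transcript version would move them. The annotation names 4 ATF4 pseudogenes, and sharing of reads with them was not tested.

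Library totals ranged from 379810 to 5577868 probe reads, with a median of 3583316. Y27 EB replicate 15 had the lowest total, and CEPT EB replicate 13, with 1814266 reads, had the lowest of its arm. Of the lineage markers, 3 of 3 mesoderm and 3 of 3 endoderm markers on the panel were highest in their own culture, against 3 of 5 ectoderm and 4 of 6 hESC markers. The other 2 ectoderm markers were highest in endoderm, and 2 of 6 hESC markers had 0 reads throughout the ectoderm libraries. Levels below are CPM, the reads of a probe relative to the library total after TMM scaling over the 48 libraries. The 6 hESC markers summed to 13297 to 14827 CPM in ectoderm, against 12714 to 14034 CPM in hESC. Log2 fold changes come from edgeR's quasi-likelihood test within each comparison, with its own scaling, so a ratio of printed levels can differ from them. A probe is called changed at a Benjamini-Hochberg adjusted p under 0.05 over all probes tested. Probes differ in efficiency, so levels are not compared between probes or genes. The libraries are of bulk cultures, so fewer cells of a type and less RNA per cell cannot be told apart.

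The comparison of the CEPT and Y-27632 arms asks whether the members differed at day 7 after different compounds on the first day. DDIT3 rose in CEPT EB with 1 of its 2 probes. Levels of ATF4, HSPA5 and ALDH1L2 RNA did not pass the test. The count was 1 of 11 member probes, higher in CEPT EB, while 23.6% of the 867 probes tested were called, 10.6% higher and 13% lower. The median log2 fold change of the members was -0.03, beside -0.04 over all probes tested.

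DDIT3 probe 849 ranged from 213 to 1055 CPM in CEPT EB, with a median of 599, and from 135 to 554 CPM in Y27 EB, with a median of 279. The arms overlapped, but the Y27 EB median was exceeded in 14 of 16 CEPT EB libraries and all 16 Y27 EB libraries lay below the CEPT EB median. The means were 583 ± 242 CPM and 307 ± 135 CPM (SD, n = 16 each), a ratio of 1.90. The log2 fold change was 0.91 ± 0.22 (SE), with a 95% interval of 0.48 to 1.35 and an adjusted p of 0.0020 in edgeR. The probe kept an adjusted p under 0.05 in all 12 other settings, where the fold change ranged from 0.62 to 0.99 on the log2 scale, and without each library in turn, where it ranged from 0.84 to 0.99. The value of 0.62 came from scaling on library totals alone, which moved the median of all probes by -0.31.

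The other DDIT3 probe, 164, counted few reads. It ranged from 0 to 23.1 CPM in CEPT EB (median 7.31) and from 0 to 22.8 CPM in Y27 EB (median 7.66), with 544 and 667 reads in all. The fitted difference was 0.13 ± 0.50 on the log2 scale (SE, adjusted p 0.876), and its 95% interval, -0.88 to 1.14, includes the fold change of probe 849. The 2 probes lie in the same exon, and the difference between their fold changes (-0.60 for probe 164 minus probe 849) did not pass a two-sided permutation test (p 0.153, adjusted p 0.514 over 10 probe pairs, 16 libraries per arm). Within the arms the 2 probes rose and fell together, with Pearson's r of 0.603 in CEPT EB and 0.732 in Y27 EB (Spearman's rho 0.50 and 0.812, 16 libraries each), given as a description, since both probes share the library's depth.

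ATF4 had narrow intervals around 0 between the arms. Probe 32, which has the most reads of the member probes, ranged from 2039 to 3801 CPM in CEPT EB (median 2765) and from 2214 to 3595 CPM in Y27 EB (median 2942). The arms overlapped over most of their ranges. The log2 fold changes were 0.03 ± 0.10, -0.01 ± 0.07 and -0.12 ± 0.08 (SE) for probes 30, 31 and 32, and the 95% intervals together spanned -0.28 to 0.23. With library totals alone in place of TMM, probes 31 and 32 had log2 fold changes of -0.33 and -0.43 and were called (adjusted p 0.0226 and 0.00152, edgeR).

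HSPA5 likewise did not pass the test in any of its probes. Probe 365 ranged from 11.3 to 32.9 CPM in CEPT EB (median 19.3) and from 15.3 to 35.6 CPM in Y27 EB (median 23.8). Log2 fold changes were -0.17 ± 0.12, -0.16 ± 0.24 and -0.25 ± 0.16 (SE) for probes 363, 364 and 365. With library totals alone, probes 363 and 365 reached -0.49 and -0.58 and were called. The 3 HSPA5 probes are all in the last exon.

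ALDH1L2 was low and variable in both arms. Probe 1158 ranged from 2.01 to 29.7 CPM in CEPT EB (median 13.2) and from 1.40 to 22.2 CPM in Y27 EB (median 12.3). Probe 1159 had 0 reads in 6 of 16 CEPT EB and 4 of 16 Y27 EB libraries, and a count of 0 allows up to 3 expected reads in a library. The log2 fold changes were -0.03 ± 0.56, 0.36 ± 0.35 and -0.18 ± 0.71 (SE) for probes 1157, 1158 and 1159. At this depth an increase of 1 log2 unit in CEPT EB lay inside the 95% intervals of all 3 probes.

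**Figure D1:**
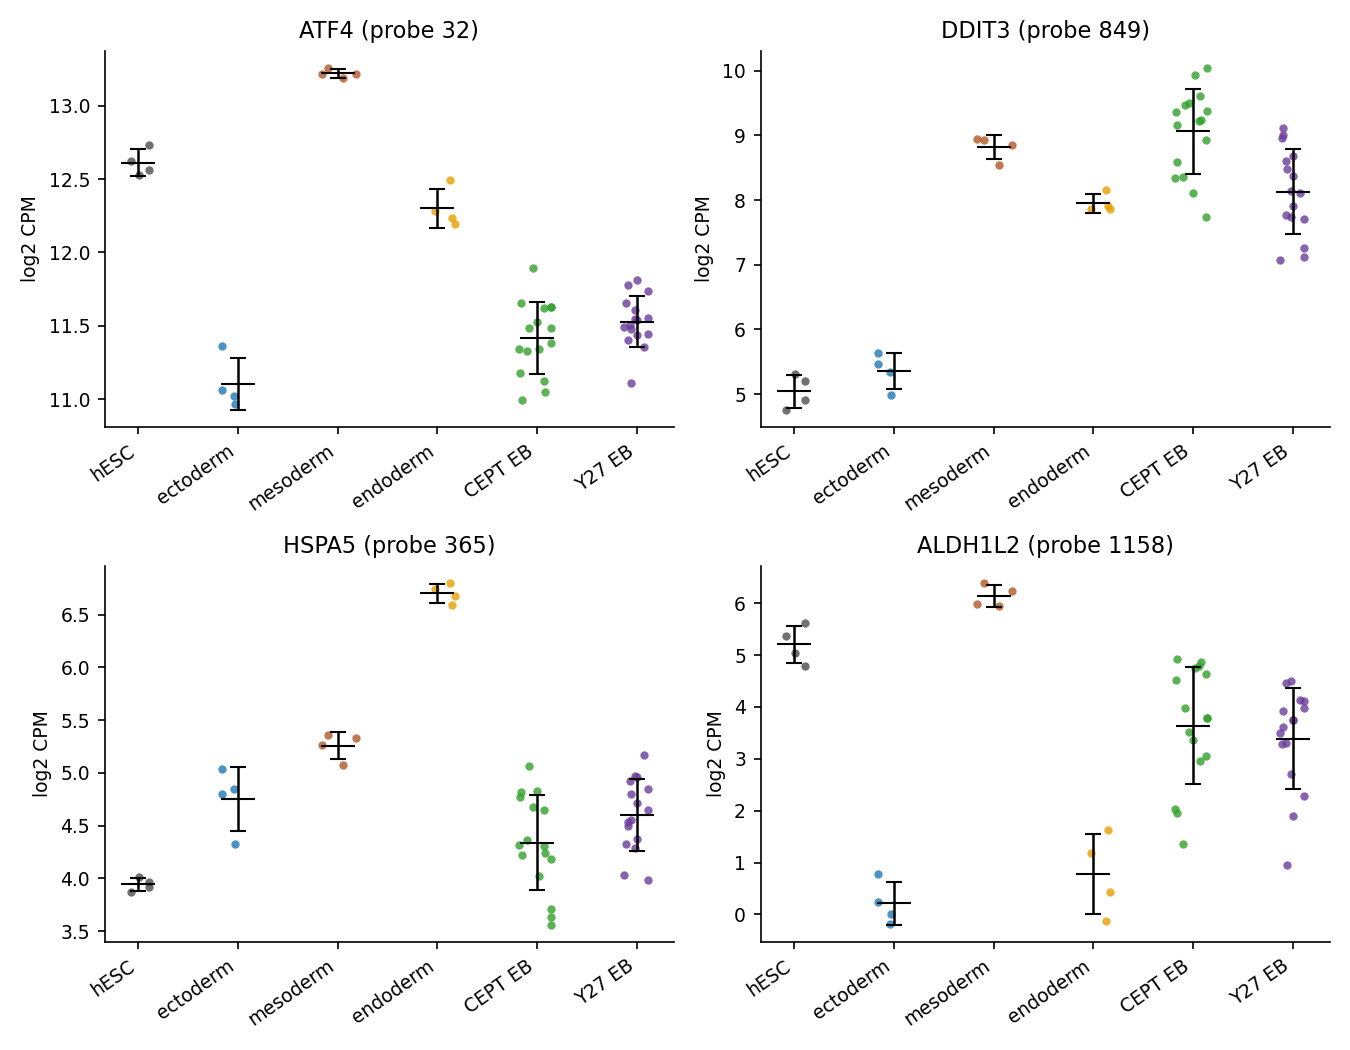
Log2 CPM (prior count 2) of 1 probe per member gene in each library of the 6 groups; points are libraries, horizontal bars are means and error bars are SD (4 libraries in each control group, 16 in each EB arm). The vertical axes differ between panels and do not start at 0. DDIT3 probe 849 has CEPT EB libraries from 213 to 1055 CPM and Y27 EB libraries from 135 to 554 CPM, while ALDH1L2 probe 1158 has all ectoderm and endoderm libraries at 5 reads or fewer.

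Other genes of the pathway were taken from lists written with earlier results of these data known. None of 9 listed eIF2 kinases and core factors was on the panel. Of 31 listed ATF4 and CHOP targets, 7 were on it. Between the arms, 5 of their 18 tested probes were higher in CEPT EB and 3 lower, against 10.6% and 13% of all probes. The median log2 fold change of the target probes was -0.07, beside -0.04 over all probes. The higher ones were the 3 probes of GDF15, a secreted stress cytokine, with log2 fold changes of 3.15, 3.26 and 2.60, and both probes of BBC3, which encodes the death protein PUMA, with 0.73 and 0.58. GDF15 probe 1191 had a mean of 76.1 CPM in CEPT EB, but a single library, replicate 7, was at 517 CPM and the median was 46.2, against 6.88 in Y27 EB. That library was also the highest of its arm for DDIT3 probe 849. In hESC the median of GDF15 probe 1191 was 46.9 CPM, near that of CEPT EB and above that of Y27 EB. The lower ones were the 3 probes of SHMT2, a mitochondrial enzyme of serine and folate metabolism, at -0.33, -0.25 and -0.28. PSAT1, SLC7A5, HMOX1 and TNFRSF10B had no probe called. With probes summed per gene, SLC7A5 was called higher in CEPT EB (0.46, adjusted p 0.0416, edgeR), while PSAT1, HMOX1 and TNFRSF10B were not called.

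Of 16 listed genes of the endoplasmic reticulum unfolded protein response, 4 were on the panel (ATF6, CALR, DNAJC3 and HSP90B1). Between the arms, none of their 11 probes was higher in CEPT EB and 5 were lower, against 10.6% and 13% of all probes. Their median log2 fold change was -0.17, beside -0.04 over all probes. HSP90B1, the chaperone GRP94, had -0.44 ± 0.07 and -0.41 ± 0.06 (SE) with probes 357 and 359. CALR, the lectin chaperone calreticulin, had -0.23 ± 0.06 and -0.17 ± 0.05 with probes 67 and 68. ATF6, the stress sensor and transcription factor, had -0.46 ± 0.13 with probe 34, while its probe 35 was at 0.00 ± 0.18. Markers of other cell types (9 of 11 listed on the panel, none at 0 in every library of an arm) summed to 7678 to 21326 CPM in CEPT EB and 11697 to 21573 CPM in Y27 EB. Mesoderm markers summed to 7.18 to 414 CPM and 0 to 3822 CPM. Their part in these differences was not tested.

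In the germ layer cultures, which the study used as controls for lineage, each member gene had its own pattern against hESC. The 3 comparisons share the same 4 hESC libraries. Most of the panel differed from hESC, so calls of members are read against high backgrounds. In ectoderm 10 of 11 member probes were called, 4 higher and 6 lower, against 81.7% of 903 probes, 43.2% higher and 38.5% lower. In mesoderm 11 of 11 were higher, against 77.5% called, 34% higher and 43.5% lower. In endoderm 9 of 11 were called, 5 higher and 4 lower, against 78.2%, 38.4% higher and 39.8% lower. The members' median log2 fold changes were -1.10, 1.08 and -0.16, beside 0.14, -0.18 and 0.00 over all probes. With low-count probes set at the bound of their counting interval, the ectoderm median was -1.19 and the others were unchanged.

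ATF4 was highest in mesoderm and lowest in ectoderm among the control cultures. Probe 32 was at 6813, 6056, 5894 and 6314 CPM in the 4 hESC libraries and at 2134, 2078, 2006 and 2630 in ectoderm. It was at 9514, 9538, 9322 and 9802 in mesoderm and at 4982, 4686, 4819 and 5771 in endoderm. No 2 of these groups overlapped. In ectoderm the log2 fold changes were -1.10 ± 0.15, -1.19 ± 0.12 and -1.43 ± 0.08 (SE) for probes 30, 31 and 32, with a largest adjusted p of 2.21e-06 in edgeR. In mesoderm they were 0.49 ± 0.15, 0.45 ± 0.12 and 0.37 ± 0.07, with a largest adjusted p of 0.0062. Without mesoderm replicate 3 the mesoderm values were 0.77, 0.70 and 0.57. In endoderm ATF4 probe 32 fell by 0.36 on the log2 scale, and probes 30 and 31 were at -0.16 and -0.25 without a call (adjusted p 0.350 and 0.0604). Probe 32 was at -0.13 with at least 10 reads in every library (adjusted p 0.183) and at -0.29 with all 48 libraries in 1 fit (adjusted p 0.0714), neither called. Probes 30 and 31 were called at -0.50 and -0.59 with upper-quartile factors and at -0.45 and -0.54 with library totals alone.

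The direction of the ATF4 change in ectoderm and endoderm depends on the scaling. With totals of the reference genes ACTB, GAPDH and PGK1, the median of all probes moved by 1.28 in ectoderm, 0.90 in mesoderm and 0.48 in endoderm. ATF4 probes 30, 31 and 32 were then at 0.21, 0.12 and -0.12 in ectoderm, and at 0.34, 0.25 and 0.13 in endoderm. Relative to the shifted median they were at -1.07, -1.16 and -1.41 in ectoderm and at -0.14, -0.23 and -0.36 in endoderm. The ectoderm decrease was thus relative to the panel's median probe, and none of the 6 values was called with the reference genes. The mesoderm values kept their direction and calls.

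DDIT3 was low in hESC and ectoderm and high in mesoderm and endoderm. Probe 849 was at 29.6, 36.4, 39.1 and 26.5 CPM in the hESC libraries and at 43.8, 39.9, 31.2 and 48.9 in ectoderm, and these groups overlapped. It was at 493, 460, 374 and 487 CPM in mesoderm and at 233, 231, 241 and 285 in endoderm, above every hESC and ectoderm library. Log2 fold changes against hESC were 3.55 ± 0.16 in mesoderm (SE, adjusted p 1.23e-13) and 2.85 ± 0.15 in endoderm (SE, adjusted p 2.55e-12). The ectoderm value of 0.40 ± 0.16 (adjusted p 0.0285) was no longer called without hESC replicate 1, hESC replicate 4 or ectoderm replicate 4 (adjusted p 0.0955, 0.105 and 0.0990), nor with upper-quartile factors or all 48 libraries in 1 fit (adjusted p 0.121 and 0.514).

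DDIT3 probe 164 had the same order with far fewer reads. The hESC libraries held 2, 2, 0 and 2 reads and the ectoderm libraries 2, 3, 1 and 4. The mesoderm libraries held 26, 19, 18 and 37 reads, and the endoderm libraries 7, 12, 11 and 10. Summed over libraries, the level was 11.8 times that of hESC in mesoderm (95% counting interval 5.23 to 32.9) and 5.39 times in endoderm (2.27 to 15.5). The mesoderm and endoderm changes were called in edgeR (adjusted p 2.07e-06 and 0.00030), and the ectoderm difference was not (adjusted p 0.704). With all 48 libraries in 1 fit the endoderm value was 2.44 and not called (adjusted p 0.0545), and with reference gene totals the ectoderm value was 1.53 and called (adjusted p 0.0361).

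HSPA5 was highest in endoderm with each of its 3 probes. Probe 365 was at 15.1, 14.6, 15.6 and 14.1 CPM in hESC, 27.4, 28.3, 19.5 and 32.2 in ectoderm, 37.8, 39.8, 33.3 and 40.6 in mesoderm, and 106, 102, 96.0 and 111 in endoderm. The 4 groups did not overlap. Endoderm had log2 fold changes of 2.67 ± 0.37, 2.85 ± 0.20 and 2.75 ± 0.15 (SE) for probes 363, 364 and 365, with a largest adjusted p of 8.41e-06. The mesoderm values were 1.08 ± 0.36, 1.10 ± 0.21 and 1.12 ± 0.15, and the ectoderm values 0.87 ± 0.36, 0.87 ± 0.22 and 0.94 ± 0.16. All 9 were called. In ectoderm probe 363 lost its call with upper-quartile factors (0.73, adjusted p 0.0874) and probe 364 with all 48 libraries in 1 fit (0.79, adjusted p 0.106). The directions of all 9 held under every scaling tried, reference genes included.

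Within the induced groups the HSPA5 probes did not vary together. Probe 363 was at 638 CPM in ectoderm replicate 3, while the other ectoderm libraries were at 264 to 335. It was at 1055 CPM in mesoderm replicate 3, against 332 to 437 in the others, and at 2062 in endoderm replicate 3, against 1142 to 1374. Probes 364 and 365 were not at their highest in any of those libraries. In mesoderm replicate 3 probe 364 was at 18.1 CPM, below the other mesoderm libraries at 28.2 to 29.1. Without ectoderm replicate 3 the ectoderm value of probe 363 was 0.48 (adjusted p 0.193), and it was also no longer called without hESC replicate 1, 2 or 3 (adjusted p 0.0721, 0.0654 and 0.0724). Without mesoderm replicate 3 the mesoderm value of probe 363 was 0.78 and stayed called.

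**Figure D2:**
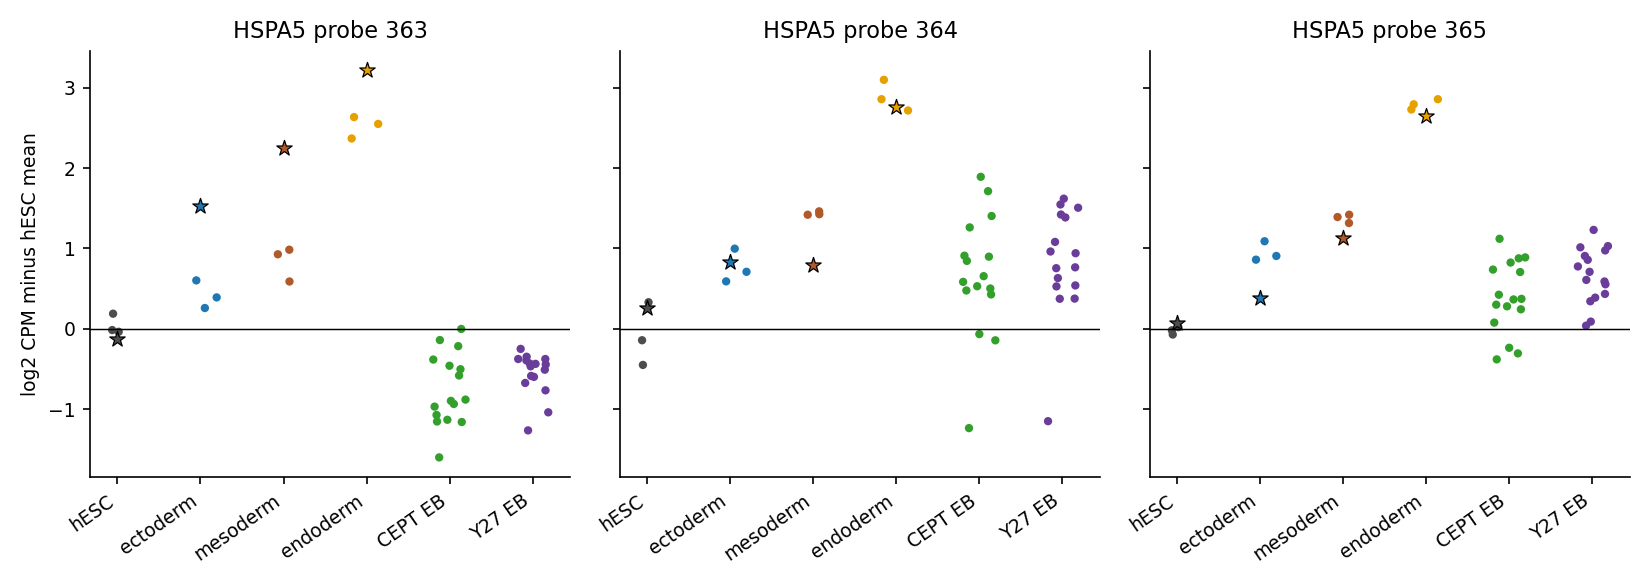
Log2 CPM of the 3 HSPA5 probes in each library minus the mean of the 4 hESC libraries for the same probe, by group; points are libraries and stars mark replicate 3 of the control groups. The stars stand above the other libraries of ectoderm, mesoderm and endoderm for probe 363, at 638, 1055 and 2062 CPM, and below them for probe 365. For probe 363 the EB libraries lie at 72.3 to 220 CPM, against 201 to 251 in hESC.

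The listed genes of the unfolded protein response were also higher in endoderm. All 11 tested probes of ATF6, CALR, DNAJC3 and HSP90B1 were higher in endoderm, against 38.4% of all probes. Their median log2 fold change was 1.52, beside 0.00 over all probes. HSP90B1 had 1.95 ± 0.12, 1.86 ± 0.14 and 2.00 ± 0.06 (SE) with probes 357, 358 and 359. CALR had 1.53, 1.41 and 1.12, DNAJC3 (a co-chaperone of BiP) had 1.34, 1.52 and 1.59, and ATF6 had 0.68 and 1.16. In mesoderm 10 of the 11 probes were higher and none lower, against 34% and 43.5% of all probes, with a median of 0.79 beside -0.18. In ectoderm 4 were higher and 2 lower, against 43.2% and 38.5% of all probes, with a median of -0.03 beside 0.14. The higher ones in ectoderm were ATF6 probes 34 and 35, at 1.36 and 1.56, and CALR probes 67 and 68, at 0.42 and 0.29. The lower ones were DNAJC3 probes 189 and 190, at -0.41 and -0.30. HSPA5 rose there too, while HSP90B1 was at -0.07, -0.03 and -0.06 without a call.

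ALDH1L2 was present in hESC, higher in mesoderm, and nearly without reads in ectoderm and endoderm. Probe 1158 was at 48.3, 27.2, 32.6 and 40.6 CPM in hESC and at 62.7, 74.8, 60.8 and 83.5 in mesoderm, and the groups did not overlap. Its reads were 3, 1, 1 and 2 in the ectoderm libraries and 4, 2, 5 and 1 in the endoderm libraries. Summed over libraries, hESC had 56.3 times the ectoderm level (95% counting interval 27 to 141).

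The other ALDH1L2 probes had the same pattern. Probe 1157 had 176 reads in hESC, 9 in ectoderm and 3 in endoderm. The hESC level was 27.5 times that of ectoderm (interval 14.2 to 61.2) and 72.6 times that of endoderm (24.4 to 356). Probe 1159 had 70 reads in hESC, 1 in ectoderm and 4 in endoderm, and the hESC level was 21.7 times that of endoderm (8.09 to 81.7). All 6 decreases were called in edgeR, with a largest adjusted p of 4.05e-07. The mesoderm rises were 0.86 ± 0.18, 0.70 ± 0.20 and 1.27 ± 0.29 (SE) for probes 1157, 1158 and 1159, with adjusted p of 0.00034, 0.0039 and 0.00067. They were not called when all 48 libraries shared a single fit (adjusted p 0.342, 0.211 and 0.332).

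The listed ATF4 and CHOP targets were mixed in these cultures. In mesoderm, where the 3 ATF4 probes and both DDIT3 probes were higher, 14 of 19 target probes were higher and 1 lower. Of all probes 34% were higher and 43.5% lower there. The median of the target probes was 0.89, beside -0.18. GDF15 was at 2.72, 2.56 and 3.07, SLC7A5 (an amino acid transporter) at 1.77, 1.80 and 2.59, and SHMT2 at 0.59, 0.72 and 0.60. In ectoderm 8 were higher and 10 lower, against 43.2% and 38.5% of all probes, with a median of -0.25 beside 0.14. SLC7A5 fell by 2.44, 2.27 and 1.23 there, while TNFRSF10B, a death receptor, was at 1.62, 1.58 and 2.02. In endoderm 8 were higher and 6 lower, against 38.4% and 39.8% of all probes, with a median of 0.14 beside 0.00. SLC7A5 was at 4.06, 4.14 and 4.83 in endoderm, while PSAT1, an enzyme of serine synthesis, fell by 1.57, 1.71 and 1.74, and GDF15 was at 0.15, -0.06 and 0.09 without a call.

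**Figure D3:**
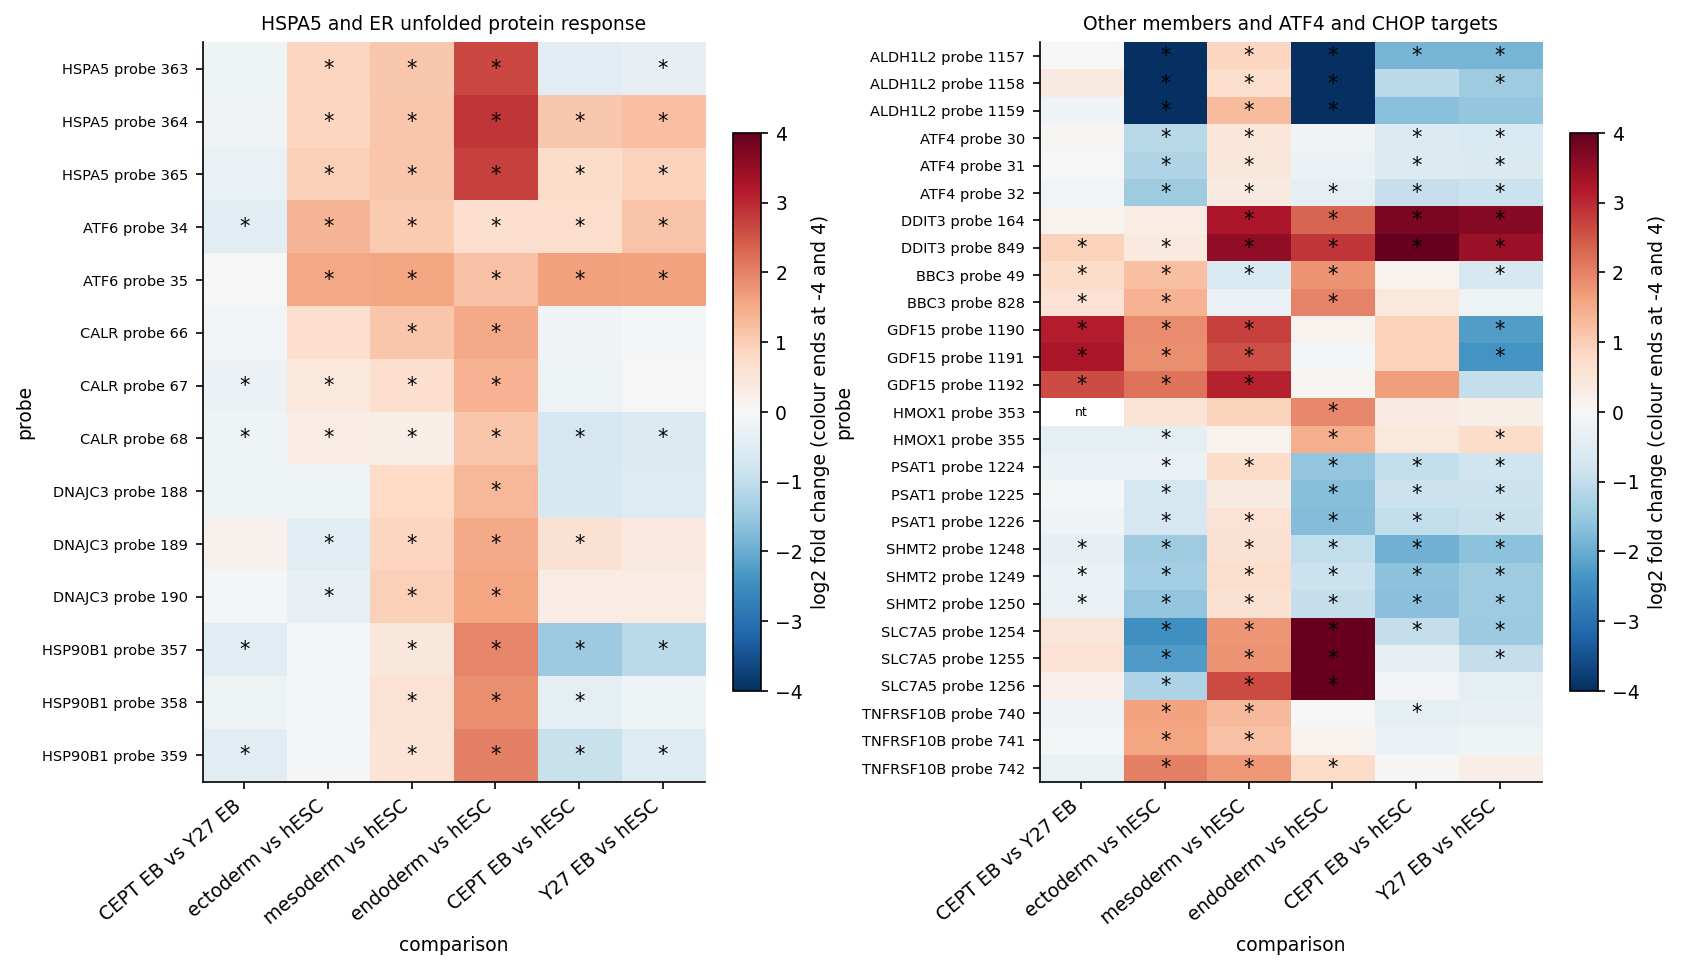
Log2 fold changes of member probes and of probes of the listed pathway genes on the panel (rows) in the 6 comparisons (columns), with the first-named group minus the second; colours end at -4 and 4, an asterisk marks an adjusted p under 0.05 in edgeR and "nt" a probe not tested. In the endoderm column all 14 probes of HSPA5, ATF6, CALR, DNAJC3 and HSP90B1 are positive and marked, with HSPA5 between 2.67 and 2.85.

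Against hESC, both EB arms had high DDIT3 and, relative to the panel's median probe, low ATF4. Both comparisons share the 4 hESC libraries. In CEPT EB 8 of 11 member probes were called, 4 higher and 4 lower, against 73.4% of 940 probes, 42.2% higher and 31.2% lower. In Y27 EB 10 of 11 were called, 4 higher and 6 lower, against 74.1% of 963 probes, 41.5% higher and 32.6% lower. The members' medians were -0.55 and -0.58, beside 0.47 and 0.39 over all probes.

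DDIT3 probe 849 had log2 fold changes of 4.39 ± 0.41 in CEPT EB and 3.45 ± 0.41 in Y27 EB (SE, adjusted p 1.77e-09 and 1.22e-07, edgeR). All 32 EB libraries lay above the highest hESC library, which was at 39.1 CPM. For probe 164 the summed level was 12.3 times that of hESC in CEPT EB (95% counting interval 5.61 to 33.7) and 10.4 times in Y27 EB (4.76 to 28.5). Libraries of both EB arms spread more widely for probe 849 than mesoderm, the control culture nearest in level to CEPT EB. The coefficients of variation were 41.4% in CEPT EB, 44.0% in Y27 EB and 12.1% in mesoderm.

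ATF4 probes 30, 31 and 32 had log2 fold changes of -0.55, -0.55 and -0.93 in CEPT EB and -0.61, -0.58 and -0.86 in Y27 EB, all called. No EB library of either arm reached the lowest hESC library with any of the 3 probes. With reference gene totals the signs turned, to 0.95, 0.94 and 0.57 in CEPT EB and 0.93, 0.97 and 0.70 in Y27 EB, while the median of all probes moved by 1.47 and 1.54. Relative to that shift the ATF4 values were -0.52, -0.53 and -0.90 in CEPT EB and -0.60, -0.57 and -0.84 in Y27 EB. With library totals alone, probes 30 and 31 were at -0.24 and -0.21 in Y27 EB and not called (adjusted p 0.249 and 0.263).

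The HSPA5 probes had fold changes of opposite sign in the EB arms. Probe 363 was at 215, 218, 201 and 251 CPM in hESC, from 72.3 to 220 CPM in CEPT EB and from 91.5 to 185 CPM in Y27 EB. CEPT EB overlapped with hESC and Y27 EB did not. Its log2 fold changes were -0.45 ± 0.21 (adjusted p 0.0567) and -0.33 ± 0.14 (adjusted p 0.0398). Probes 364 and 365 were at 1.08 ± 0.44 and 0.72 ± 0.29 in CEPT EB (adjusted p 0.0303 and 0.0306) and at 1.19 ± 0.35 and 0.93 ± 0.23 in Y27 EB (adjusted p 0.0044 and 0.00085).

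Tested directly, the HSPA5 probes differed in their change from hESC. Probe 363 minus probe 364 was -1.42 in CEPT EB (exact permutation test, two-sided, adjusted p 0.0103 over 10 probe pairs) and -1.39 in Y27 EB (exact, adjusted p 0.0261). Probe 363 minus probe 365 was -1.15 (exact, adjusted p 0.0110) and -1.22 (exact, adjusted p 0.00413). The test was added after the opposite signs had been seen. All 3 probes lie in the 3′ untranslated part of the same exon, with probe 363 nearest to the coding sequence. Library by library the HSPA5 probes also moved little together within the arms, with Pearson's r between -0.37 and 0.34 for the pairs. No single direction for HSPA5 in the embryoid bodies is given here.

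The calls of single HSPA5 probes in the arms changed with the scaling and with the hESC libraries left out. With median-ratio factors, upper-quartile factors or DESeq2, probe 364 in CEPT EB was at 0.77, 0.74 and 0.77 (adjusted p 0.103, 0.119 and 0.0854) and probe 365 at 0.41, 0.38 and 0.41 (adjusted p 0.195, 0.228 and 0.188), none called. The same probe, 365, also lost its call under library totals alone and under the fit of all 48 libraries (0.74 and 0.47, adjusted p 0.0624 and 0.0556). Probe 363 in CEPT EB was called under median-ratio factors, upper-quartile factors, DESeq2 and the single fit, at -0.76, -0.79, -0.76 and -0.70 (adjusted p 0.00266, 0.00208, 0.00196 and 0.00422). Probes 364 and 365 in CEPT EB lost their calls without any single hESC library, with adjusted p from 0.0547 to 0.120. Probe 363 in Y27 EB lost its call without hESC replicate 1, 2 or 4 (adjusted p 0.0634, 0.0700 and 0.128), and in CEPT EB it gained a call without hESC replicate 1, 2 or 3 (adjusted p 0.0392, 0.0444 and 0.0278). With reference gene totals probe 363 was at 1.06 in CEPT EB and 1.22 in Y27 EB, and relative to the shifted median at -0.41 and -0.32.

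The ATF4 and DDIT3 probes could be compared in the same way. ATF4 probe 31 fell less than probe 32, by 0.39 in CEPT EB (exact permutation test, adjusted p 0.0103) and 0.28 in Y27 EB (exact, adjusted p 0.00413). For ATF4 probe 30 minus probe 32 the values were 0.38 in CEPT EB (exact, adjusted p 0.0867) and 0.24 in Y27 EB (exact, adjusted p 0.0444). Without the library of low total, the Y27 EB value was 0.23 (exact, adjusted p 0.0555). Probes 30 and 31 lie close together in the last exon. DDIT3 probe 164 minus probe 849 was -1.35 in CEPT EB (exact, adjusted p 0.0413) and -0.75 in Y27 EB (exact, adjusted p 0.413). That pair includes hESC libraries with 0 to 2 reads, and with a prior count of 0.5 in place of 2 the CEPT EB difference was -0.73 (exact, adjusted p 0.583).

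ALDH1L2 lay between hESC and the ectoderm and endoderm cultures in both arms. Probe 1157 was at 20.8 to 25.9 CPM in hESC and at 0 to 14.7 CPM in the 32 EB libraries, without overlap. Its log2 fold changes were -1.86 ± 0.71 in CEPT EB and -1.87 ± 0.69 in Y27 EB (SE, adjusted p 0.0230 and 0.0195). Probe 1158 was at -1.04 ± 0.49 and -1.43 ± 0.43 (adjusted p 0.0602 and 0.0046), and probe 1159 at -1.67 ± 0.96 and -1.54 ± 0.92 (adjusted p 0.117 and 0.134). In CEPT EB, probe 1158 was called without hESC replicate 2 (adjusted p 0.0495) and, at -1.28 to -1.38, with median-ratio factors, upper-quartile factors, DESeq2 or all 48 libraries in 1 fit (adjusted p 0.0137, 0.0123, 0.0130 and 0.0101). In Y27 EB, probes 1157 and 1158 lost their calls with library totals alone (adjusted p 0.0680 and 0.0685). With reference gene totals no ALDH1L2 probe was called in either arm.

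**Figure D4:**
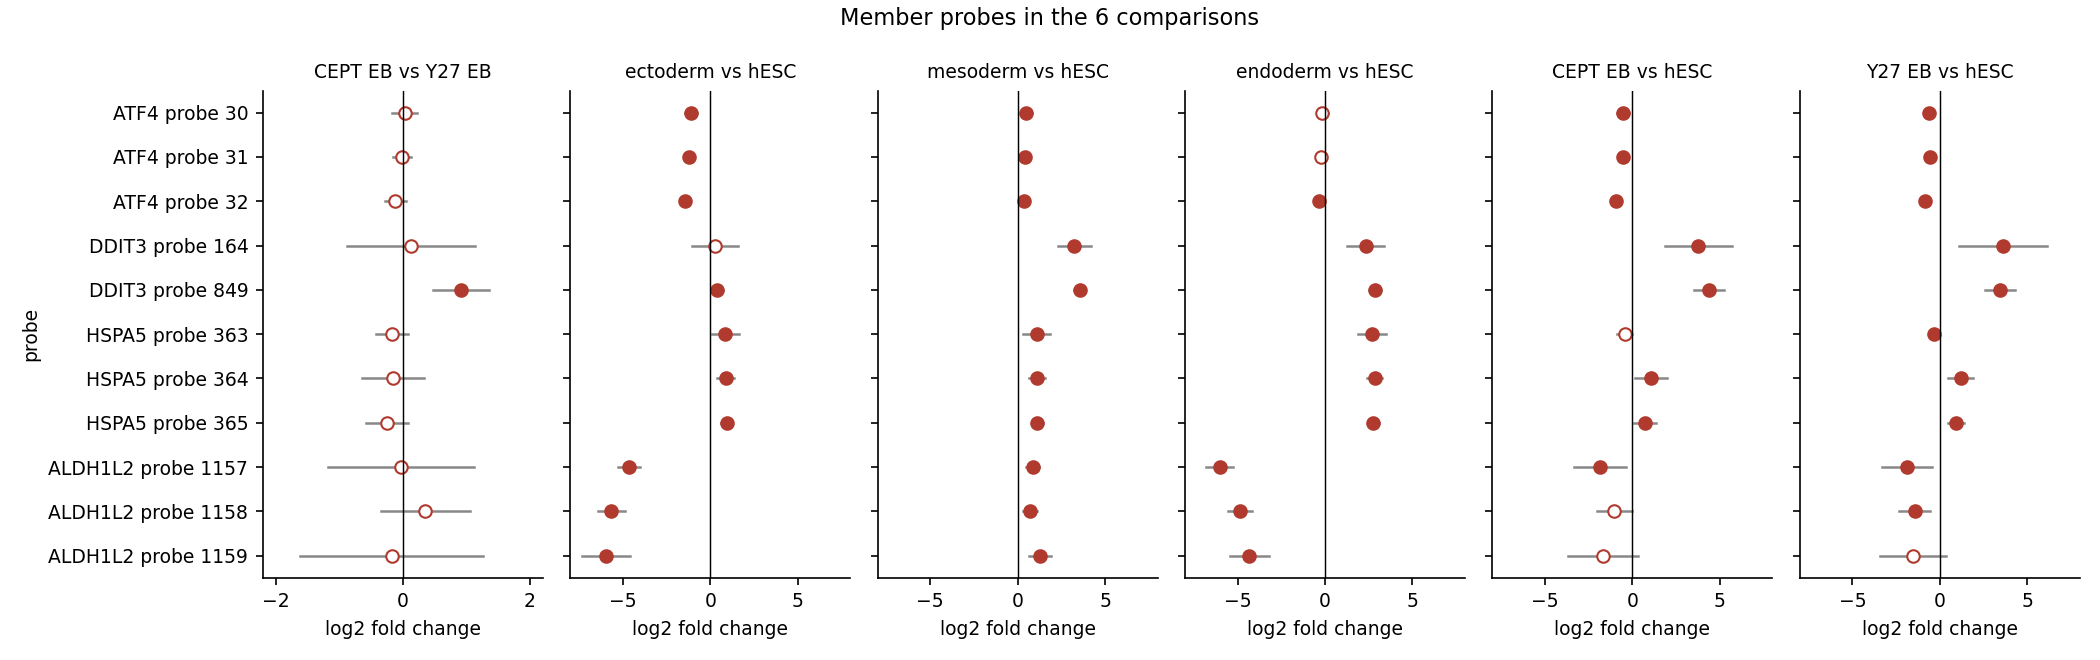
Log2 fold changes (points) with 95% intervals (grey lines, edgeR) of the 11 member probes in the 6 comparisons, first-named group minus second; filled points have an adjusted p under 0.05. The axis of the first panel runs over a narrower range than the other 5. In the first panel only DDIT3 probe 849, at 0.91, is filled, and in the mesoderm panel all 11 are filled and positive.

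Of the listed ATF4 and CHOP targets, none of 19 tested probes was higher and 8 were lower in CEPT EB than in hESC. Of all probes 42.2% were higher and 31.2% lower. The median of the target probes was -0.22, beside 0.47. In Y27 EB 1 target probe was higher and 11 lower, against 41.5% and 32.6% of all probes, with a median of -0.85 beside 0.39. SHMT2 had -1.93, -1.63 and -1.66 in CEPT EB and -1.64, -1.43 and -1.42 in Y27 EB. PSAT1 was at -0.99, -0.87 and -0.99 in CEPT EB and -0.81, -0.85 and -0.90 in Y27 EB. Of the unfolded protein response probes, 3 were higher and 4 lower in CEPT EB and 2 higher and 3 lower in Y27 EB. Their medians were -0.21 in CEPT EB and -0.06 in Y27 EB, beside 0.47 and 0.39 over all probes. Both ATF6 probes were among the higher ones in each arm. HSP90B1 probe 357 was at -1.47 and -1.07, and the gene with its probes summed was at -0.99 and -0.67. Markers of other cell types summed to 1953 to 2334 CPM in hESC, below the EB libraries, and their part in these differences was not tested.

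Placed in order of mean log2 level, the 6 groups ran differently for each gene. For ATF4 probe 32 the order was mesoderm, hESC, endoderm, Y27 EB, CEPT EB and ectoderm. The groups from mesoderm down to Y27 EB did not overlap with their neighbours, while Y27 EB, CEPT EB and ectoderm did. For DDIT3 probe 849 it was CEPT EB, mesoderm, Y27 EB, endoderm, ectoderm and hESC, and neighbours overlapped throughout except endoderm and ectoderm. For HSPA5 probe 365 it was endoderm, mesoderm, ectoderm, Y27 EB, CEPT EB and hESC, where overlap began at ectoderm. For ALDH1L2 probe 1158 it was mesoderm, hESC, CEPT EB, Y27 EB, endoderm and ectoderm, and only mesoderm and hESC did not overlap.

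Other genes of the panel had profiles close to those of the members over the 6 group means, measured by Pearson's r with the best probe of each gene and given as a description. ATF4 probe 32, DDIT3 probe 849, HSPA5 probe 363 and ALDH1L2 probe 1158 stood for the members. For ATF4 they were PWP2 (0.974), HSPA8 (0.972) and SHMT2 (0.964). For DDIT3 they were MAP1B (0.983), HAPLN1 (0.957) and CD59 (0.939). For HSPA5 they were CALR (0.988), TAGLN (0.983) and HSP90B1 (0.976). For ALDH1L2 they included SLC4A4 (0.978) and ALDOC (0.95). With 6 points high values are easily reached among many probes.

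Over the 32 EB libraries the nearest genes were others. They were CNBP (r 0.817), UCHL1 (0.813) and CCT3 (0.791) for ATF4, and RPL13A (0.842), UGP2 (0.836) and FABP7 (0.814) for DDIT3. HSPA5 had RALB (0.590), SLC25A5 (0.583) and TNFRSF10B (0.549), and ALDH1L2 had HUS1 (0.664), SLC17A6 (0.539) and CDH2 (0.531). Arm means were subtracted first, and the libraries of each pair of genes share their depth.

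The members themselves were not shown to vary together within an arm. Of 12 pairs of member genes and arms, none passed a permutation test after adjustment (16 libraries per arm, lowest adjusted p 0.116). The highest Pearson's r was between ATF4 and HSPA5 probe 363 in Y27 EB, at 0.606 (permutation p 0.0153) with a Spearman's rho 0.379 (permutation p 0.149). Without the 2 libraries farthest from the median of ATF4 the r was 0.12, so it rests on those libraries. HSPA5 probe 363 and ALDH1L2 probe 1158 in Y27 EB had an r of -0.59 (permutation p 0.0193, adjusted 0.116) and the largest Spearman's rho in size, -0.62 (permutation p 0.0112, adjusted 0.125). Without the 2 libraries farthest from the median of HSPA5 the r was -0.49 (permutation p 0.0749). In CEPT EB, leaving out the 2 libraries farthest from the median of DDIT3 probe 849 raised 2 values. The r with ALDH1L2 probe 1158 went from 0.38 to 0.68 (permutation p 0.147 and 0.00748). The r with HSPA5 probe 363 went from 0.26 to 0.59 (permutation p 0.333 and 0.0262). With libraries left out this way, no pair passed after adjustment (lowest adjusted p 0.0898, permutation test).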

How the data were processed

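Per the labels' protocols, polyadenylated RNA was captured on plates with oligo-dT primers, probes were annealed and ligated, and barcoded PCR products were sequenced on a NextSeq instrument. The authors deposited raw read counts per probe without normalization. DESeq2 and hg38 are named in the submitters' processing notes with no role given, and the aligner is not given in the sources used here. The labels name no molecular identifiers for these PCR products, so intervals and the limit of 3 reads for a count of 0 cover counting error only. Values were read from the tables of single samples. A merged table held the same counts in 48 columns, and its other 16 columns matched no label and were not used.

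Probes were filtered with filterByExpr, scaled by TMM and tested with edgeR 4.0.16 (robust quasi-likelihood test, two-sided) in R 4.3.3, over the 32 EB libraries, the 16 control libraries, or an arm with hESC. Log2 CPM had a prior count of 2. Differences between probes and correlations used permutation tests (100000 resamples, exact for an arm against hESC). The fit was run on simulated counts for the EB arms and for ectoderm against hESC. Only a minority of probes was changed there, up or down alike, so scaling where most probes differ was not tested. Libraries were grouped by their labels, which do not say whether they are separate cultures, so p-values measure the spread between these libraries. Members, gene lists and tests were chosen with earlier results of these data known. The genes named were all members, the pathway genes called between the EB arms, and for each member the 3 genes with the highest Pearson's r over the 6 group means (spanning at least 1 log2 unit) and over the 32 EB libraries. Of these, 1 gene is not reported here. Other pathway genes with values were chosen after these had been seen. Alternatives were other scalings, filters of low counts, DESeq2 1.42.0, a replicate block, probes summed per gene, all 48 libraries in 1 fit, library total as covariate, and libraries left out. The probe comparison against hESC, replicates 1 to 4 without the block, and leaving out CEPT EB replicate 13 with Y27 EB replicate 15 were chosen after seeing the data. Promoter sequences came from RefSeq (GRCh38.p14). Its table matched 3 of the 4 members (not ALDH1L2). Probe sequences were not used here. Figures were drawn with matplotlib 3.10.9.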

Additional observations from a re-analysis of the deposited data

Results flagged for a closer look

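Among 44 combinations of member probe and control group, 3 held a library set apart from the other 3 of its group by Dixon's criterion, and chance alone flags about 1 in 20. HSPA5 probe 364 was low in mesoderm replicate 3, at a log2 CPM of 4.22 (38 reads), while the other mesoderm libraries lay at 4.85 to 4.89. In the same library HSPA5 probe 363 was the highest of its group. DDIT3 probe 164 was low in hESC replicate 3, at a log2 CPM of -0.88, which stands for 0 reads where the others held 2 reads each. ALDH1L2 probe 1159 was high in ectoderm replicate 3, at a log2 CPM of 0.01, which stands for 1 read where the others held 0. The latter pair are differences of 1 or 2 reads.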

How the results depend on the processing

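The replicate numbers do not pair libraries by the labels, and same-numbered libraries of the EB arms correlated at -0.284 to 0.17 in their deviations. DDIT3 probe 849 kept its direction and call in 5 of the 6 comparisons under every alternative run and without each single library that was left out, which for an arm against hESC were the 4 hESC libraries alone. The exception was ectoderm, with 2 alternatives and 3 single libraries that ended its call.

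Between the EB arms the count of 205 called probes became 339 with library totals alone (48 higher, 291 lower) and 112 for probes summed per gene, where fewer features are tested, and median-ratio factors gave 107 higher and 75 lower. With library totals alone ATF4 probes 30, 31 and 32 were at -0.29, -0.33 and -0.43, HSPA5 probes 363 and 365 at -0.49 and -0.58, ALDH1L2 probe 1158 at -0.011 and DDIT3 probe 164 at -0.13. Values near 0 changed sign. ATF4 probe 31 was at 0.07 with DESeq2 and with median-ratio factors (0.0704 and 0.0701), at 0.027 with upper-quartile factors, at 0.0014 with all libraries in 1 fit and at 0.060 with at least 10 reads in every library. ALDH1L2 probe 1157 was at 0.05 with DESeq2 (0.0464) and with median-ratio factors (0.0528), at 0.0060 without the library of low total, and at 0.082 in the fit with the replicate block. Leaving out each library in turn, ALDH1L2 probe 1157 ranged from -0.15 to 0.18, probe 1159 from -0.41 to 0.10, ATF4 probe 30 from -0.00065 to 0.093 and probe 31 from -0.029 to 0.035.

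The share of calls that were higher, 44.9% between the arms, was 58.8% with median-ratio factors and 14.2% with library totals alone. With reference gene totals it was 76.3% in ectoderm (52.8% with TMM), 71.7% in mesoderm (43.9%, and 54.9% with library totals alone), and 60.8% in endoderm (49.2%). For CEPT EB against hESC it was 87.3% (57.5%) and for Y27 EB 86.0% (56.0%).

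Against hESC the counts with at least 10 reads in every library were 435 (ectoderm), 392 (mesoderm), 398 (endoderm), 425 (CEPT EB) and 407 (Y27 EB), and for probes summed per gene 333, 316, 331, 325 and 323, since fewer features are tested. ATF4 probe 30 in endoderm was at 0.0015 with DESeq2 and with median-ratio factors and at 0.082 with at least 10 reads in every library. With reference gene totals ATF4 probes 30 and 31 were at 0.21 and 0.12 in ectoderm, probes 30, 31 and 32 at 0.34, 0.25 and 0.13 in endoderm, 0.95, 0.94 and 0.57 in CEPT EB and 0.93, 0.97 and 0.70 in Y27 EB. HSPA5 probe 363 was at 1.06 and 1.22 in the arms, ALDH1L2 probe 1158 at 0.44 and 0.12, and probe 1159 in Y27 EB at 0.024. With library totals alone HSPA5 probe 363 in Y27 EB was at 0.031. DDIT3 probe 164 in ectoderm ranged from -0.036 to 0.49 without each library in turn. The fit with the replicate block, over replicates 1 to 4 for the arms, ended the calls of HSPA5 probe 364 (0.71) and ALDH1L2 probe 1157 (-2.38) in CEPT EB and of HSPA5 probe 363 (-0.15) in Y27 EB, as did those 4 replicates without the block. It called ATF4 probe 31 in endoderm (-0.25), ALDH1L2 probe 1158 in CEPT EB (-1.58) and probe 1159 in Y27 EB (-3.51). Replicates 1 to 4 without the block also called these ALDH1L2 probes, at -1.29 and -2.49 (adjusted p 0.0489 for each, edgeR). The cause of these changes was not tested. Low counts limit DDIT3 probe 164 and all ALDH1L2 probes.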

Other observations

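The pattern of HSPA5 probe 363 in replicate 3 of the induced cultures was looked for across the panel after it had been seen. A probe was counted when it exceeded 1.5 times every other library of its group in ectoderm, mesoderm and endoderm alike, with a mean of at least 10 CPM and 1 CPM added to both levels. Of 1016 probes, 16 met this for replicate 3 and none for replicate 1, 2 or 4. They included CD9 probes 93 and 95 (CD9 is a tetraspanin of the cell surface) and single probes of MCL1, LDHA, KRT18 and SPRY2. HSPA5 probe 363 was at 1.90, 2.41 and 1.5 times the highest other library in ectoderm, mesoderm and endoderm, and with the added 1 CPM it fell just short of being counted. Replicate 3 also had the lowest library total of each control group. These totals were 1773969 reads in hESC, 2283016 in ectoderm, 2358531 in mesoderm and 2982467 in endoderm. The part of depth or of a shared batch in the pattern was not tested. Replicate numbers of the control groups are not stated to mark a shared batch.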
